A study of Mus musculus with 20 samples.

Results

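Complement genes were examined in the intervertebral disc of old mice: the 9 genes C1ra, C1s1, Serping1, C4b, C2, C3, Cfb, Cfp and C7, taken by symbol from a table of 51789 genes. Each has a value in every library, and that of C7 was 0 in NP MDL-800 library 20. C1q, whose chains are made mostly by macrophages, was left out of the 9 and is given only beside them. All mice were BL6, received intraperitoneal injections over 6 months, starting when they were 18 months old, and were killed at 24 months. The vehicle mice received DMSO and the treated mice MDL-800, a small-molecule activator of the chromatin deacylase SIRT6, in the same amount of DMSO, so that every group carries the solvent and no untreated mice enter. From each arm, the soft gel-like centre of the disc, the nucleus pulposus (NP), and its surrounding lamellar ring, the annulus fibrosus (AF), gave 5 libraries each, 20 in 4 groups. The sample labels speak of cells and the extraction protocol of tissue dissected under a microscope, with no sorting step, so each library holds whatever cells came with the compartment. The labels do not say whether the libraries of a group come from separate mice, and p-values measure the spread between these libraries.

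Complement is a cascade of plasma and tissue proteins that tags surfaces, recruits leukocytes and can open pores in membranes. In the classical route the proteases C1r and C1s sit on C1q, and C1s cleaves C4 and C2 to build a C3 convertase; in the alternative route C3 and factor B build another, which properdin stabilises. C3 cleavage leads to the terminal components C5 to C9, and regulators such as C1 inhibitor restrain the steps. Liver is the main source of the circulating proteins, while fibroblasts, macrophages and neutrophils make several of them locally.

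By estimate from the steps of low values, libraries held between 12750000 and 22000000 fragments. Values are FPKM, fragments counted for each kilobase of a transcript relative to the size of the library, divided by a factor for each library that lay between 0.933 and 1.06, and a value written as scaled FPKM is a level per length. NP markers (9 genes, among them keratins, brachyury and Car3) summed to between 25620 and 32850 scaled FPKM in the 10 NP libraries and to between 2493 and 15090 in the 10 AF libraries, and Noto averaged under 1 in all 4 groups. The sum of the AF markers (7 genes) did not part the tissues: it lay between 743.8 and 1523 in NP and between 801.6 and 2549 in AF. Tnmd and Thbs4 averaged under 1 in NP MDL-800 libraries, while all 7 averaged at least 1 in NP vehicle and in both AF groups. A sum is set by its most abundant genes, and the 7 are not compared singly here. AF vehicle library 9 stood apart with 15090 for the NP markers, against at most 7512 in the other 9 AF libraries, and with 2483 for fibroblast markers, against at least 4572. NP vehicle library 6 had the highest macrophage (368.4) and neutrophil (3090) sums among the NP libraries, where the others reached 229.6 and 1653.

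Of the 9 genes, C2, Cfb and C4b lie on chromosome 17 of GRCm38 (mm10) at 34862604 to 34898265, 34856374 to 34862518 and 34728380 to 34743882, all on the minus strand, and only 85 bases part C2 from Cfb. C3 is on the same chromosome at 57203970 to 57228136. C1ra (chromosome 6, 124512405 to 124523443, plus strand) and C1s1 (124530345 to 124542359, minus strand) are neighbours 6901 bases apart. Serping1 lies on chromosome 2 (84765387 to 84775444), Cfp on X (20925454 to 20931555) and C7 on 15 (4988762 to 5063740), each on the minus strand. All 9 are annotated as protein-coding. C1ra shares 97.9% of 2432 aligned transcript bases with C1rb, C1s1 shares 96.0% of 2644 with C1s2, and C4b shares 96.0% of 5378 with C4a, so reads could be split between copies and these 3 genes are uncertain to that extent. C1rb reached 0.128 scaled FPKM and C1s2 0.595 in their highest libraries, and C4a between 0.525 and 2.39 over all 20. A readthrough gene on the same strand, Gm20547, shares exons with C2 and Cfb, and its highest deposited value was 1.08 FPKM. Zbtb12, on the opposite strand, shares exonic bases with C2 and stood between 2.35 and 10.89 FPKM.

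The 250 bases before the transcript start are printed for 3 of the genes, because their results differ most plainly: C7 had the lowest level in NP, C3 was abundant and far lower in NP than in AF, and C1s1 showed only a small tissue difference. The sequences are from the RefSeq promoter table on GRCm38.p6, which holds 5 of the 9 genes (C1ra, C1s1, C3, C7 and Cfp). C2, Cfb, C4b and Serping1 were not matched there. Each is given 5′ to 3′ on the minus strand, and capitals mark matches to motifs read on both strands.
C7, chr15:5063774-5064023: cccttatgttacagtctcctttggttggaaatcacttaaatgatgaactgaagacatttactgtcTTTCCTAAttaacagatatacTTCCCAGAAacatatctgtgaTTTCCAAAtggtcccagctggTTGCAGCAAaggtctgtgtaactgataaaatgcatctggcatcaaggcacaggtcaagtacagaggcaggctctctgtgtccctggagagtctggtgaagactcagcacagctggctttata
C3, chr17:57228137-57228386: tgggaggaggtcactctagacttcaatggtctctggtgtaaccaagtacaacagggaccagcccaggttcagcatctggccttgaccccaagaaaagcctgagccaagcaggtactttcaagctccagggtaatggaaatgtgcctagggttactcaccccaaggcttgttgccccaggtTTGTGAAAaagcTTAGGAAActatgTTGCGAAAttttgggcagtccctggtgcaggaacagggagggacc
C1s1, chr6:124542360-124542609: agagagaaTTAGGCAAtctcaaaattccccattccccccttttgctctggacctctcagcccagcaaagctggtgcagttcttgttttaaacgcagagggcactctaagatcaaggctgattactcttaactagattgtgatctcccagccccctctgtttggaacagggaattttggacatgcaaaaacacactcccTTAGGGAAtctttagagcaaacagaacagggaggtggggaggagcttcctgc
The motifs searched were the STAT element GAS (TTCNNNGAA), the interferon element ISRE, NF-kB in a strict and a loose form (the loose one not put in capitals), C/EBP in a strict form (TTGCNNCAA) and a loose form (TTNCNNAA), and AP-1 (TGACTCA). Among 6 windows of the 5 genes (C1s1 has 2 overlapping ones), GAS matched only that of C7, from 164 to 156 bases before the start, and 7.02% of all 32851 promoters held a match. The strict C/EBP form also matched only C7, from 122 to 114 bases before the start, against 1.74% of all promoters. The loose C/EBP form, which accounts for the other capitals and can overlap other motifs, matched 5 of the 6 windows and 36.8% of all promoters, and the loose NF-kB form matched 3 of 6 and 45.8%. Of the 250 bases of the C1ra window, 216 lie in an annotated C1ra exon, so that window is mostly not upstream sequence. The 2 C1s1 windows share a loose C/EBP match, so the 6 windows are not separate promoters. ISRE, strict NF-kB and AP-1 matched none of the 6 windows, at 2.98%, 3.33% and 4.46% of all promoters. A match is a description of letters and not of a bound site.

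The first comparison set NP against AF in vehicle mice and asked which complement transcripts differ between the core and the ring of the old disc. Of the 9 genes, 8 were lower in NP at an adjusted p under 0.05 (limma, Benjamini-Hochberg over 16383 genes tested) and none was higher, and C2 alone had a higher mean in NP. Across all genes tested, 33.9% were lower in NP, 21.8% higher and 55.7% called in either direction, so a call by itself says little in this comparison. By size, the median log2 fold change of the 9, NP minus AF, was -3.04, against -0.08 over all genes tested. In 7 genes every NP library lay below every AF library, which held for 25.9% of all genes in that direction. All 9 genes passed the filter on low values, which asks for 1 FPKM in at least 5 libraries, but C7 passed it only through AF. The fall of C7 therefore carries no weight in these counts. In whole tissue, fewer cells of a type and less RNA per cell cannot be told apart.

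**Figure D1:**
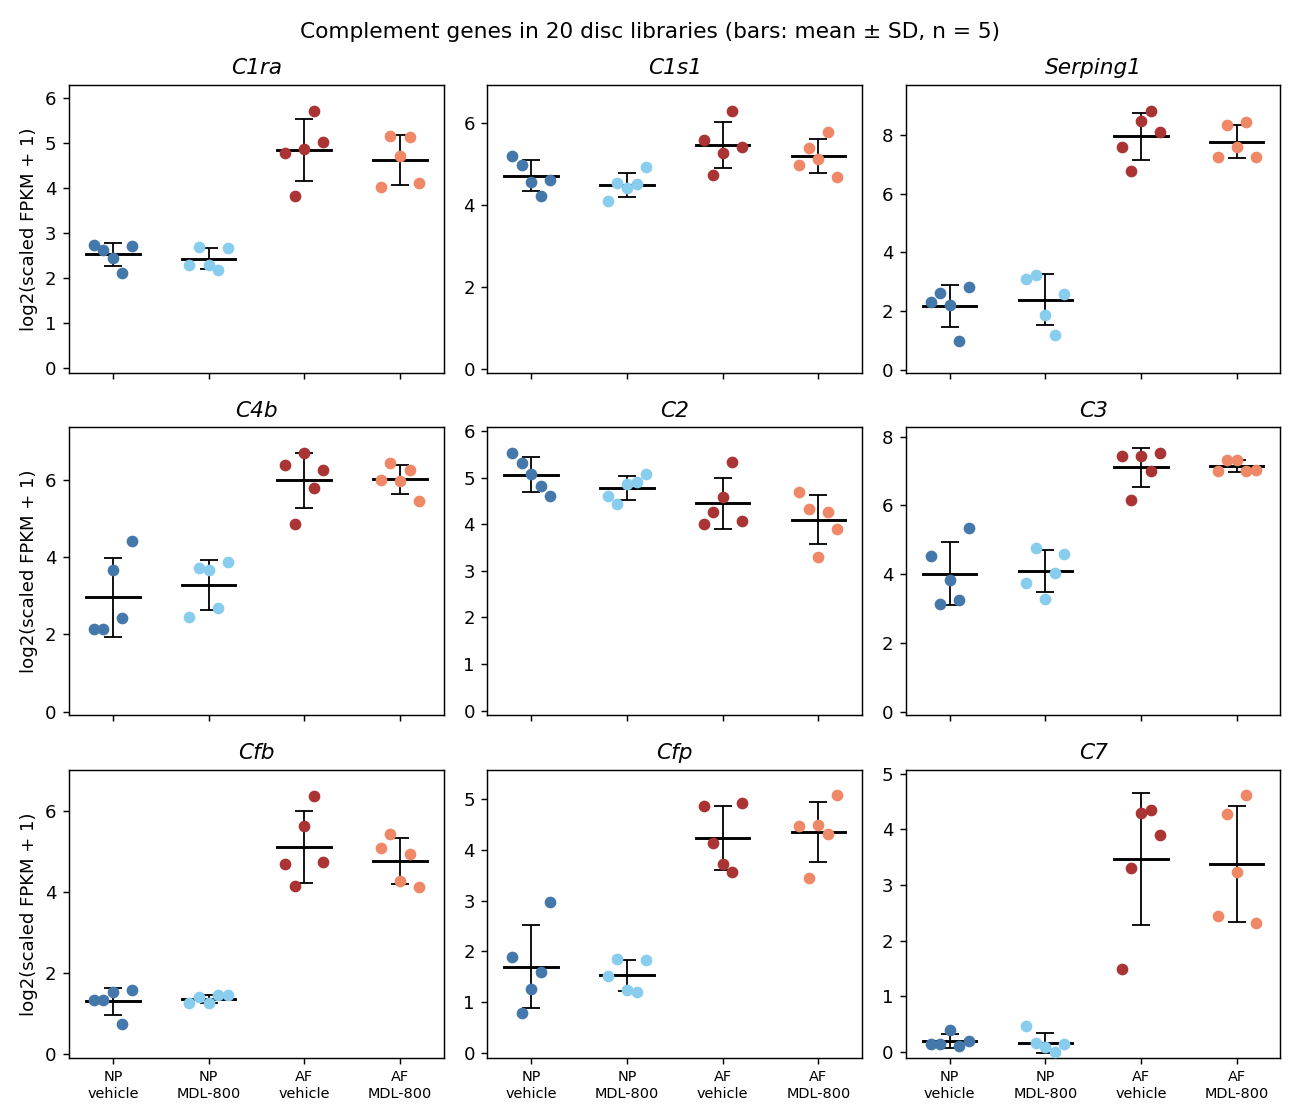
Levels of the 9 complement genes, as log2(scaled FPKM + 1) on the vertical axis, in the 4 groups on the horizontal axis; each point is a library and the bars are mean ± SD over 5 libraries. C1ra, Serping1, C4b, C3, Cfb, Cfp and C7 sit lower in all 10 NP libraries than in the 10 AF libraries, while C1s1 and C2 overlap.

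On the log2 scale the largest tissue difference among the 9 was that of Serping1, which encodes C1 inhibitor, the serpin that inactivates C1r and C1s. In NP vehicle libraries 1, 2, 3, 5 and 6 it stood at 3.98, 5.08, 3.61, 0.976 and 6.00 scaled FPKM. AF vehicle libraries 8, 9, 10, 12 and 13 gave 190.2, 108.2, 352.6, 447.8 and 270.1. The groups were far from overlapping: the lowest AF library was many times the highest NP library. Its mean of 273.8 ± 133 (SD, n = 5) in AF was 69.7-fold that of 3.93 ± 1.90 (SD, n = 5) in NP, and the log2 fold change on log2(scaled FPKM + 1) was -5.76 (SE 0.42, adjusted p = 4.98e-06, limma).

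The proteases that C1 inhibitor blocks showed smaller differences. C1ra, the C1r subunit, was read at 5.65, 5.17, 4.44, 3.34 and 5.61 scaled FPKM in the NP libraries, in the same order. Its AF values were 26.7, 13.1, 28.1, 51.7 and 31.8. Every AF library lay above every NP library, the mean was 6.25-fold higher in AF, and the log2 fold change was -2.32 (SE 0.29, adjusted p = 7.95e-05, limma).

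C1s1, the C1s subunit, gave 35.7, 30.5, 22.6, 17.6 and 23.3 scaled FPKM in NP and 46.4, 25.6, 37.2, 77.4 and 41.5 in AF. The ranges overlapped, since AF library 9 lay under NP libraries 1 and 2. The AF mean was 1.76-fold higher, with a log2 fold change of -0.74 (SE 0.27, adjusted p = 0.0371, limma). This call rested on single libraries: leaving out NP vehicle 3, 5 or 6 gave an adjusted p of 0.0729, 0.0889 or 0.0683, and leaving out AF vehicle 8, 12 or 13 gave 0.0716, 0.0663 or 0.0617, with the difference between -0.92 and -0.53 over all 10 such fits. It was also lost with no filter on low values (0.0834) and with quantile normalization (0.0653).

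Among the convertase genes, C2 stood against the rest. C2, the protease that C1s cleaves to arm the classical convertase, was read at 45.1, 38.7, 32.7, 27.4 and 23.2 scaled FPKM in NP. In AF it was read at 15.0, 18.1, 22.9, 39.6 and 15.8. NP libraries were mostly the higher ones, but AF library 12 reached into their range, and the log2 fold change of +0.62 (95% confidence interval 0.04 to 1.20) had an adjusted p of 0.0666 in limma, which missed the threshold. Without AF vehicle 12 the difference was +0.84 (adjusted p = 0.00499, limma), and without NP vehicle 6 it was +0.74 (0.0416). It also passed with quantile normalization (+0.78, 0.0264) and with all 4 groups in the fit (0.0499).

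C4b, whose product forms the classical convertase with C2, behaved otherwise. Its NP values were 3.38, 3.39, 11.7, 4.41 and 20.3 scaled FPKM and its AF values 82.1, 28.0, 102.4, 54.8 and 75.0. The groups did not overlap, although NP library 6 came near AF library 9. C4b was 7.93-fold higher in AF by the means, with a log2 fold change of -3.04 (SE 0.49, adjusted p = 0.000368, limma).

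C3, the protein on which all routes converge, gave 22.1, 7.85, 13.1, 8.50 and 39.8 scaled FPKM in NP and 173.8, 70.3, 171.5, 127.3 and 182.1 in AF. Again the lowest AF library was number 9 and the highest NP library number 6, and the ranges stayed apart. The AF mean was 7.94-fold the NP mean, with a log2 fold change of -3.09 (SE 0.42, adjusted p = 0.000139, limma).

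Cfb encodes factor B, the alternative-route counterpart of C2 and its genomic neighbour. In NP it was read at 1.50, 1.48, 1.87, 0.661 and 1.99 scaled FPKM, a low and narrow range. In AF it was read at 24.4, 16.5, 48.0, 81.6 and 25.4, so that the lowest AF library exceeded every NP library. The AF mean was 26.1-fold higher (log2 fold change -3.81, SE 0.37, adjusted p = 2.04e-05, limma). C2 and Cfb, 85 bases apart, thus had means on opposite sides between the tissues.

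Cfp, properdin, which is known from neutrophils and other myeloid cells, stood at 2.71, 0.722, 1.41, 2.02 and 6.83 scaled FPKM in NP and at 28.3, 16.6, 12.2, 10.9 and 29.3 in AF. Its ranges did not overlap. The AF mean was 7.11-fold higher, with a log2 fold change of -2.54 (SE 0.41, adjusted p = 0.00036, limma).

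C7, a terminal component that anchors the growing pore in a membrane, was close to the limit of what the libraries show in NP: 0.107, 0.103, 0.324, 0.0789 and 0.148 scaled FPKM, or about 3.88 to 17.6 fragments a library by the estimated depth. In AF it was read at 1.81, 8.91, 18.6, 19.4 and 13.9, with library 8 well under the other 4. The AF mean was 82.3-fold higher. On the log2(scaled FPKM + 1) scale, which compresses a gene so low, the difference was -3.27 (SE 0.47, adjusted p = 0.000178, limma), and with a pseudocount of 0.1 it was -5.34.

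**Figure D2:**
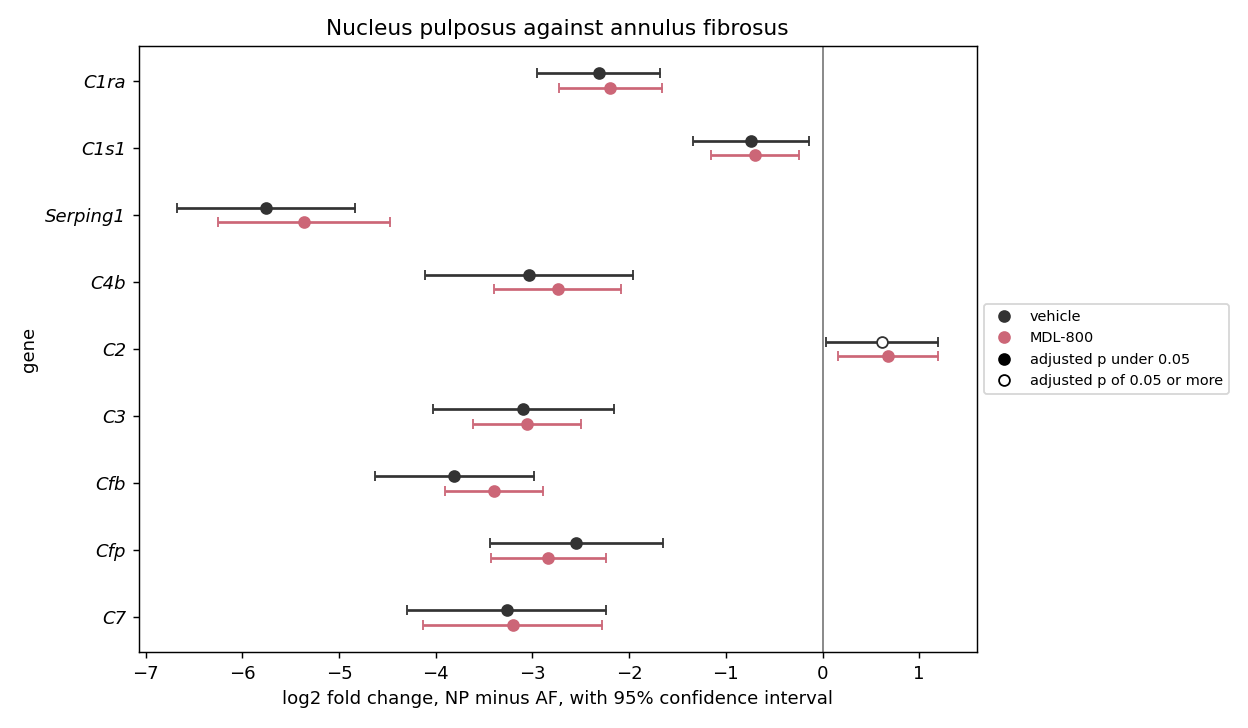
Difference between tissues for the 9 genes: the horizontal axis is the log2 fold change, NP minus AF, with its 95% confidence interval, for vehicle and MDL-800 mice; filled points passed an adjusted p of 0.05. Serping1 lies farthest to the left at -5.76 and -5.37, C1s1 lies nearest to 0 among the lower genes, and C2 is the only gene to the right.

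The same contrast in MDL-800 mice used separate libraries and gave the same signs for all 9 genes. There 8 genes were lower in NP and C2 was higher, 9 of 9 called, against 62.8% of all genes tested (37.2% lower, 25.6% higher), and the median over the 9 was -2.84, against -0.08 over all genes. C7, which passed the filter only through AF, carries no weight in this count either. C2 stood at 23.3, 20.7, 28.0, 29.2 and 32.6 scaled FPKM in NP libraries 15, 18, 19, 20 and 22 and at 24.9, 19.2, 8.84, 18.3 and 13.9 in AF libraries 25, 27, 28, 29 and 30. The ranges overlapped, and the difference was +0.68 (SE 0.23, adjusted p = 0.0264, limma). This call was lost without NP MDL-800 library 19 (adjusted p = 0.0535), 20 (0.0563) or 22 (0.063), without AF library 30 (0.0559), and with no filter on low values (0.0608).

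Serping1 in these mice was read at 7.59, 8.30, 2.67, 1.28 and 5.04 scaled FPKM in NP and at 151.0, 317.1, 190.0, 341.7 and 151.2 in AF. The gap was 46.2-fold by the means and -5.37 on the log2 scale (SE 0.40, adjusted p = 2.39e-06, limma). C1s1 again had the smallest fall that passed, -0.70 (adjusted p = 0.0124, limma), with overlapping ranges of 16.2 to 29.1 in NP and 24.6 to 54.0 in AF. C7 was between 0 and 0.388 in NP, listed at 0 in library 20, and between 3.99 and 23.4 in AF. For the other 5 genes the differences were -3.40 for Cfb, -3.05 for C3, -2.84 for Cfp, -2.74 for C4b and -2.20 for C1ra, and in these, as in Serping1 and C7, the NP and AF libraries did not overlap, which held for 30.5% of all genes in that direction. Beside that share, too, C7 carries no weight, since it passed the filter only through AF.

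Because the genes differed by unequal amounts, the make-up of the complement transcripts was not the same in the 2 tissues. The 9 genes together summed to 99.4 ± 25.0 (SD, n = 5) scaled FPKM in NP vehicle and 88.4 ± 17.4 (SD, n = 5) in NP MDL-800, and to 657 ± 230 (SD, n = 5) and 575 ± 139 (SD, n = 5) in AF. In NP, C2 and C1s1 made up a median of 67.2% of that sum in vehicle libraries (36.6% to 74.4%) and 55.3% in MDL-800 libraries (43.0% to 64.1%). In AF the same pair made up 10.4% (7.57% to 14.3%) and 8.91% (8.10% to 11.7%). Serping1 and C3 held the larger share there, with medians of 63.2% and 65.2% in AF against 18.2% and 24.9% in NP. These shares and the ratios below restate the levels above and carry no test.

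**Figure D3:**
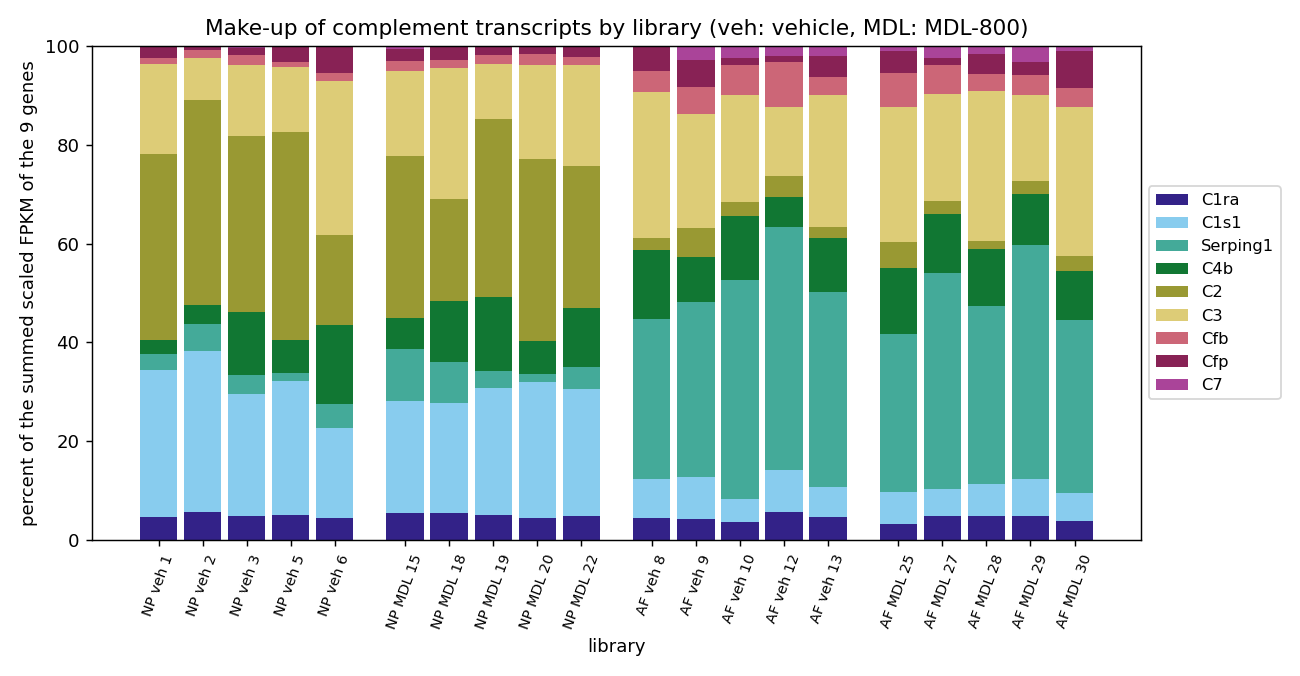
Share of each of the 9 complement genes in their summed scaled FPKM, in percent on the vertical axis, for each of the 20 libraries on the horizontal axis, named by tissue, arm and number. C2 and C1s1 together fill 36.6% to 74.4% of the bars in NP and 7.57% to 14.3% in AF, where Serping1 and C3 fill 58.5% to 66.4%.

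The order of the levels, which are per length, also differed. In NP vehicle libraries it ran C2, C1s1, C3, C4b, C1ra, Serping1, Cfp, Cfb and C7, and only the last step, from Cfb to C7, was between genes whose ranges did not overlap. In NP MDL-800 libraries Serping1 and C1ra changed places, and the steps from C1ra to Cfp and from Cfb to C7 were apart. In AF vehicle libraries the order was Serping1, C3, C4b, C1s1, Cfb, C1ra, C2, Cfp and C7, and each neighbour overlapped the next. In AF MDL-800 libraries C2 and Cfp changed places, and only C3 and C4b did not overlap.

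In a ratio of 2 genes within a library the scale factor cancels. C1s1 was 3.89 to 18.0 times Serping1 in the NP vehicle libraries, with a median of 6.26, and 2.13 to 17.0 times in NP MDL-800 libraries. In AF it was 0.106 to 0.244 times Serping1 in vehicle and 0.128 to 0.202 in MDL-800 libraries. The C1s1 transcript therefore exceeded that of Serping1 in all 10 NP libraries and in none of the 10 AF libraries. C1ra, the other protease, was 0.934 to 3.42 times Serping1 in NP vehicle and 0.514 to 2.79 times in NP MDL-800 libraries. In NP neither C1ra nor Serping1 was thus the higher throughout. In AF, C1ra was 0.0798 to 0.140 times Serping1 in vehicle and 0.101 to 0.134 in MDL-800 libraries. C1s1 was a median of 5.26 and 5.10 times C1ra in NP and of 1.50 and 1.51 times in AF, again without overlap. C2 was a median of 26.0 and 16.8 times Cfb in NP and of 0.614 and 0.626 times in AF. The ratio of C4b to C3, by contrast, overlapped across all 4 groups, with medians between 0.431 and 0.511.

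The other genes of the pathway were read from a list of 48, of which 30 passed the filter, 10 of them only with the help of AF libraries, which favours a lower value in NP. In vehicle mice 21 of the 30 were lower in NP and 3 were higher, beside the 33.9% and 21.8% of all genes given above, which is a description of those that passed. Among the largest differences were those of Cfd, factor D, the protease that activates factor B (-5.53), the 3 C1q chains C1qc (-4.85), C1qa (-4.83) and C1qb (-4.79), and Itgb2, the common chain of the complement receptor integrins (-3.74). Cfd averaged 2.48 scaled FPKM in NP and 137.4 in AF. Of the receptors, C5ar1, Itgam and Itgb2 reached 1 FPKM in at least 5 NP libraries and were lower in NP; C3ar1, C5ar2, Vsig4, Itgax and Cd93 passed the filter only with AF libraries, where they are high, so their falls carry no weight as a count. C4a did not pass (-0.07, adjusted p = 0.821, limma), and C1rb and C1s2 were too low to be tested.

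Higher in NP were Masp1, a protease of the lectin route (+1.21), Cd55, decay-accelerating factor, which dismantles convertases on cell surfaces (+0.61), and Susd4 (+1.32); these 3 are named because so few were higher, after their values were seen. Masp1 averaged 9.37 ± 3.04 (SD, n = 5) scaled FPKM in NP and 3.50 ± 1.35 (SD, n = 5) in AF, and Cd55 80.2 ± 10.9 (SD, n = 5) and 53.1 ± 13.4 (SD, n = 5). In MDL-800 mice 25 of the 30 were called, 21 lower and 4 higher, beside 62.8% of all genes called, 37.2% lower and 25.6% higher. The fourth higher gene was C8g (+0.50), which passed the filter only with the help of NP libraries. Among the largest there were Cfd (-5.18), C1qa (-4.65), C1qc (-4.53), C1qb (-4.47) and Fcnb, a ficolin (-3.85).

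Markers of other cell types moved with the tissue in the same direction as the complement genes that were lower in NP, and unlike C2, Masp1, Cd55 and Susd4. Macrophage markers (10 genes) summed to between 70.1 and 368.4 scaled FPKM in NP and to between 947.8 and 2417 in AF, with Adgre1, Aif1, Fcgr1 and Cx3cr1 averaging under 1 in both NP groups. Neutrophil markers (8 genes) summed to between 189.8 and 3090 in NP and to between 6082 and 32750 in AF, and fibroblast markers (10 genes) to between 46.8 and 265.7 and between 2483 and 10060. Within AF, vehicle libraries 8 and 13 and MDL-800 libraries 28 and 30 were the highest in both the macrophage and the neutrophil sum. The macrophage sum did not always follow C1qa. MDL-800 library 30 had 2313 with C1qa at 65.8, library 29 had 1050 with 113.8, and vehicle library 13 had 2417 with 113.9. The macrophage sum is thus not a separate reading of macrophages in AF. Endothelial, red blood cell, B and plasma cell and fat lists were likewise without overlap between the tissues. The fat list includes Cfd, one of the other complement genes given above, so it is not separate from them. Cfd averaged 137.4 scaled FPKM in AF vehicle libraries, where the fat list summed to a median of 286.2. The bone list (7 genes) did not overlap either, at most 169.2 in NP and at least 248.9 in AF, while the skeletal muscle list did, with 1086 in NP vehicle library 3. No marker list was at 0 as a whole in either tissue. Of 6 hepatocyte markers, Alb, Apoa1, Ttr, Fgb and Ahsg averaged under 1 in every group, and only Serpina1a did not; the list summed to between 2.00 and 15.0 in NP and to between 31.1 and 631.5 in AF, also without overlap. The part of these cells in the tissue differences was not tested.

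The second question was whether long-term MDL-800 shifts complement transcripts within a compartment. In NP none of the 9 genes passed an adjusted p of 0.05 (limma), and none had an unadjusted p under 0.05. Among all 16383 genes, 41 passed, or 0.25% (2 to 189 with a library left out, the most without NP vehicle 6), and 2311 had an unadjusted p under 0.05, or 14.1%. The largest differences, MDL-800 minus vehicle, were +0.32 for C4b (95% confidence interval -0.74 to 1.38) and -0.29 for C2 (-0.69 to 0.11). C1s1 was at -0.22 (-0.65 to 0.21), Serping1 at +0.21 (-0.76 to 1.19) and Cfp at -0.18 (-0.95 to 0.60). C1ra (-0.09), C3 (+0.07), Cfb (+0.07) and C7 (-0.03) were nearer 0.

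Every one of the 9 genes had overlapping ranges between NP vehicle and NP MDL-800, whereas 4.5% of all genes did not overlap. For C4b, the gene with the widest interval, the MDL-800 libraries gave 4.47, 12.1, 11.8, 5.45 and 13.5 scaled FPKM, within the vehicle range of 3.38 to 20.3. For C2 the MDL-800 range of 20.7 to 32.6 lay toward the lower end of the vehicle range of 23.2 to 45.1. Cfb was the tightest in NP MDL-800, at 1.39, 1.62, 1.37, 1.74 and 1.73, and its interval of -0.28 to 0.41 bounds the change on this scale. The interval of C3, -0.90 to 1.03, was wider. The trend of values with the GC content of genes separated the 2 NP arms: its slope, in log2 units for 10 points of GC, was between -0.285 and -0.0067 in vehicle libraries and between 0.0228 and 0.0885 in MDL-800 libraries. With that trend removed, none of the 9 genes passed.

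In AF none of the 9 passed either, nor did any of the 16383 genes (0%, limma), of which 270, or 1.65%, had an unadjusted p under 0.05. The largest differences were -0.35 for C2 (95% confidence interval -1.03 to 0.33), -0.34 for Cfb (-1.26 to 0.58), -0.26 for C1s1 (-0.89 to 0.36) and -0.21 for C1ra (-0.99 to 0.56). Serping1 was at -0.18, Cfp at +0.12, C7 at -0.09, C3 at +0.02 and C4b at +0.02. AF libraries differed widely among themselves: C7 ran from 1.81 to 19.4 scaled FPKM in vehicle and from 3.99 to 23.4 in MDL-800 libraries. C3 was narrow in the MDL-800 arm alone, at 128.1, 158.1, 159.7, 125.9 and 130.1, a range that lay inside the vehicle range of 70.3 to 182.1. All 9 genes overlapped between the AF arms, and 0.226% of all genes did not.

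**Figure D4:**
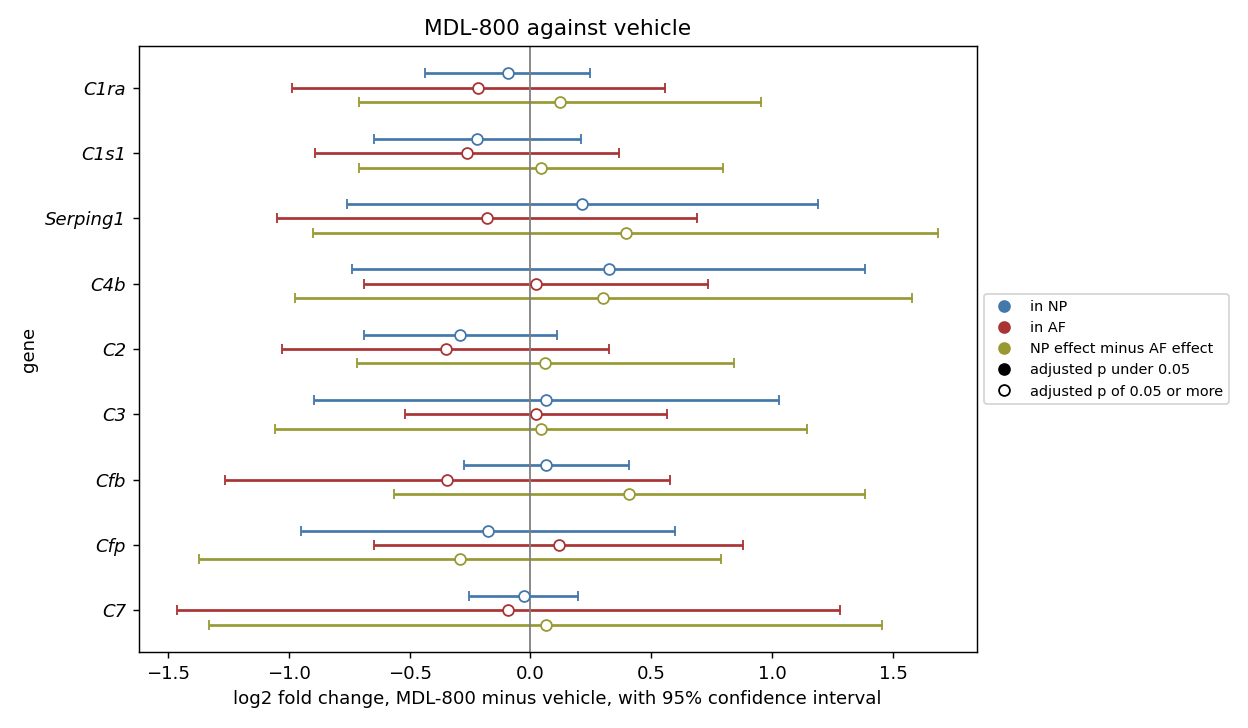
Effect of MDL-800 on the 9 genes: the horizontal axis is the log2 fold change, MDL-800 minus vehicle, with its 95% confidence interval, in NP, in AF, and as the NP effect minus the AF effect; open points did not pass an adjusted p of 0.05. All points are open and all intervals hold 0.

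The difference of the treatment effect between the tissues, tested as an interaction over all 20 libraries, passed for none of the 9 genes and for none of the 16383 (0%, limma; 611, or 3.73%, had an unadjusted p under 0.05). Estimates, NP effect minus AF effect, ran from -0.29 for Cfp (95% confidence interval -1.37 to 0.79) to +0.41 for Cfb (-0.56 to 1.38), with adjusted p = 0.9997 for each in limma. Of the 30 other complement genes none passed in NP, in AF or in the interaction. The smallest p in NP were those of Clu, clusterin, a fluid-phase inhibitor of the terminal pore (+0.24, adjusted p = 0.334, limma), and Fcna, a ficolin (-0.34, 0.45). In AF they were those of Vtn, vitronectin (-0.56, adjusted p = 1, limma), and C1qb (-0.42, 1), and in the interaction those of Cd59a and Cd59b, inhibitors of the pore (-0.45 and -0.55, both 0.9997).

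Within groups, libraries that were high for one gene tended to be high for some others. This is given as a description across 20 libraries, in each of which the genes share the library's depth, tissue make-up and GC trend. Deviations from the group means correlated at r = 0.86 between C1ra and C1s1, at 0.79 between C1ra and Serping1, at 0.69 between C2 and Cfb and at 0.64 between C3 and C4b. Taken apart by tissue, C2 and Cfb correlated at 0.83 over the 10 AF libraries and at 0.09 over the 10 NP libraries, where Cfb is low and narrow. C3 correlated with C4b at 0.86 in AF and at 0.57 in NP, and with Cfp at 0.87 in NP and at 0.13 in AF. Cfp ran against the others in AF, at -0.73 with Cfb, -0.68 with C7 and -0.61 with C2.

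**Figure D5:**
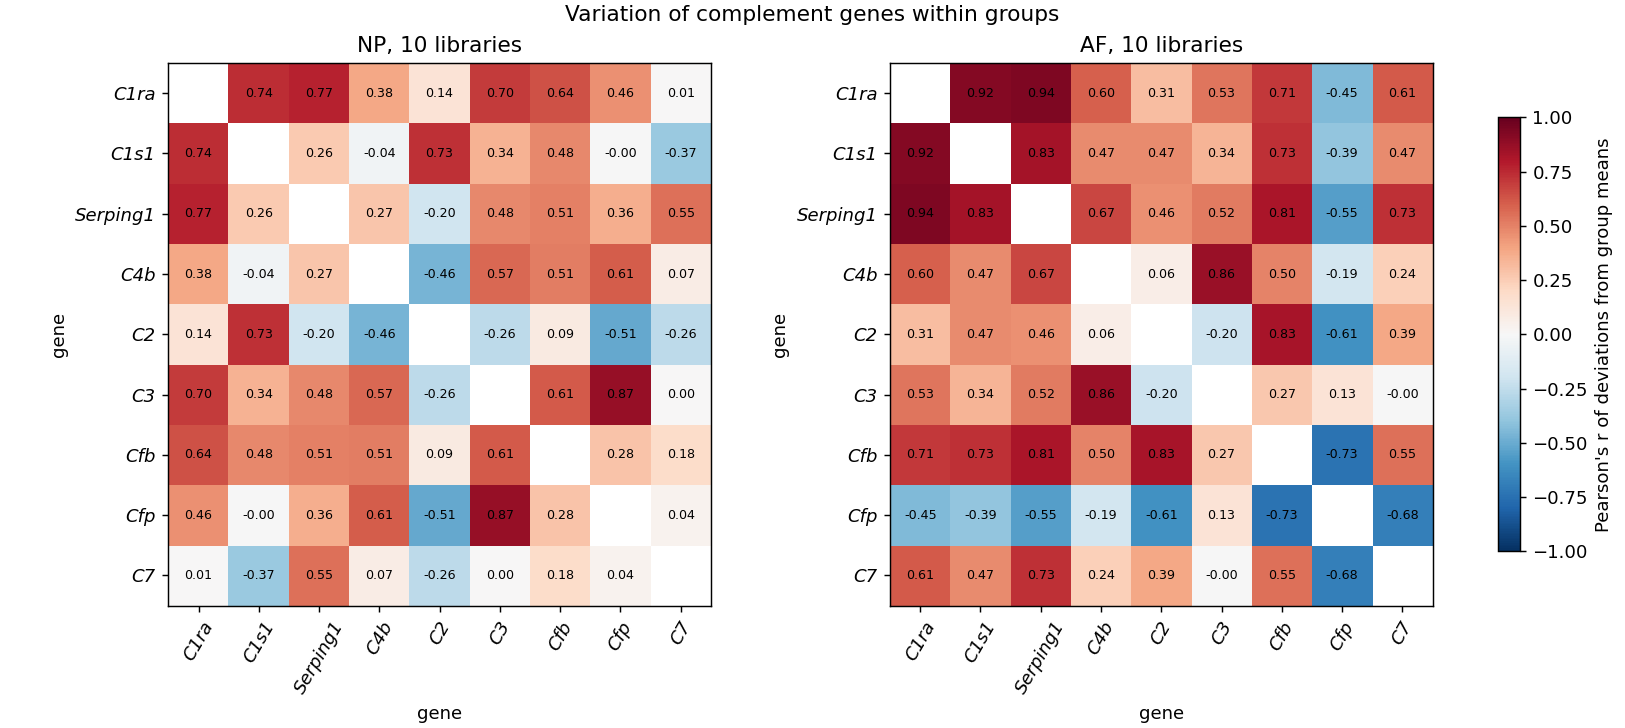
Pearson's r between the 9 genes for deviations of log2(scaled FPKM + 1) from the group means, over the 10 NP libraries (left) and the 10 AF libraries (right); both axes list the genes and the colour runs from -1 to 1. In AF, C1ra, C1s1 and Serping1 form a block at 0.83 to 0.94, and the Cfp row is below 0 with every gene except C3.

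Single libraries stood at the ends of several ranges. AF vehicle library 12 was the highest of its group for 6 of the 9 genes (C1ra, C1s1, Serping1, C2, Cfb and C7) and the lowest for Cfp. AF vehicle library 9, the one with the high NP marker sum, was the lowest for 6 (C1ra, C1s1, Serping1, C4b, C3 and Cfb). NP vehicle library 6 was the highest for 5 (Serping1, C4b, C3, Cfb and Cfp) and the lowest for C2, and its macrophage and neutrophil sums were the highest in NP. Without NP vehicle 6 the difference of NP against AF was -3.43 for C3, -3.40 for C4b and -2.86 for Cfp, larger than with it. Without AF vehicle 9 it was -6.05 for Serping1 and -2.57 for C1ra. Without AF vehicle 12 it was -5.54 and -2.10, and each of these calls held. In AF the 5 libraries highest in Cfp, vehicle 8 and 13 and MDL-800 25, 28 and 30, were also the 5 highest in the neutrophil sum, and MDL-800 library 27 was the lowest in both. AF MDL-800 library 30 held the highest of both, 32.8 scaled FPKM of Cfp and a neutrophil sum of 32750. The part of neutrophils in the level of Cfp was not tested.

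The genes whose deviations were most like those of each complement gene over the 20 libraries were Arrb2 (r = 0.96) and Rps6ka1 (0.95) for Cfp, C3ar1, the receptor for the C3a fragment (0.94), and Atp8b1 (0.90) for C1ra, and Apod (0.90) and Cd34 (0.81) for Serping1. For C7 they were Cd300ld4 (0.94) and Gsta3 (0.92), with both at 0.96 over the AF libraries and at -0.05 and 0.07 over the NP libraries, where C7 is hardly read. For Cfb they were Slamf9 (0.89) and Ccl3 (0.87), at 0.51 and 0.24 in NP. C3 was nearest to Vav3 (0.88) and Icam1 (0.83), C1s1 to Slc7a8 (0.86) and to its neighbour C1ra (0.86), C2 to Homer1 (0.86) and Kbtbd3 (0.86), and C4b to Ptgis (0.85) and Pax1 (0.85). Taken by tissue, C1ra and C3ar1 stood at 0.99 in AF and 0.57 in NP, and C3 and Icam1 at 0.48 in AF and 0.92 in NP. All these genes were picked as the most similar of all genes tested, so a high r carries no weight by itself.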

How the data were processed

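RNA was measured in 20 libraries in 4 groups of 5. The authors deposited FPKM values, rounded to 2 decimals, for 51789 genes, made from stranded, ribosomal RNA-depleted total RNA (50 ng input and 14 PCR cycles, per the labels' protocols). STAR 2.7.11b and mm10 are named in the submitters' processing notes; the program that assigned reads to genes is not given in the sources used here. FPKM values were divided by a median-ratio factor over 11308 genes, and 16383 genes reaching 1 FPKM in 5 or more libraries were tested on log2(scaled FPKM + 1) with limma 3.58.1 (R 4.3.3, mean-variance trend, two-sided, Benjamini-Hochberg), with only the 2 groups compared in the fit; all 4 groups entered the interaction. FPKM are not counts and no count model was used. Fold changes on this scale understate those of low genes. Depth was estimated from whole-read steps of 6647 single-exon genes: 80.2% to 86.0% of values lay within 0.2 reads of a step. On simulated data with 200 genes changed by 1 on the log2 scale, the NP against AF test in vehicle mice found 69.0%, the treatment test 75.5% in NP and 70.5% in AF, and the interaction 48.0%. The simulated spread of each gene was pooled over the 4 groups, and only genes with a baseline above 1 on that scale were changed. In the data, 9127 genes were called between the tissues in vehicle mice, far more than the 200 changed here, so the Benjamini-Hochberg cut-off is not alike. These shares therefore do not measure recovery in the real tissue contrast. Nor do they measure it at the spread of NP or AF alone, or for genes as low as C7 in NP.

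The members and gene lists were chosen with earlier results of these data known. Named by rule were the 9 genes, for other complement genes the 6 largest called differences with a mean of at least 1 (without calls, the 2 smallest p), of which 1 is not reported here, and the 2 genes with the most similar deviations. Coordinates are from GENCODE M21 (GRCm38), and near copies were aligned with blastn 2.17.0. Python 3.11.15 was used.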

Additional observations from a re-analysis of the deposited data

How the results depend on the processing

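Alternatives were a pseudocount of 0.1, no filter on low values, deposited FPKM without scaling, quantile normalization, no mean-variance trend, removal of each library's GC trend, all 4 groups in the fit, and each library left out in turn; fits on the number in the column headers were added after seeing the data. The tissue calls of C1ra, Serping1, C4b, C3, Cfb, Cfp and C7 held in both arms under every one of these. Calls of C1s1 and C2 did not, as given in the report; for these the cause was not tested. Quantile normalization moved the median tissue difference of all genes from -0.08 to +0.20 in vehicle mice and turned the split of called genes from 3577 higher and 5550 lower to 6474 and 3923, and in MDL-800 mice from 4188 and 6102 to 6919 and 4290, while all 9 complement genes kept their sign.

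The header numbers are the same for the 5 vehicle pairs of NP and AF libraries and for 3 MDL-800 pairs, and the labels do not say what they mark. Deviations of same-numbered libraries had r from -0.18 to 0.29 (median 0.079) in vehicle and from -0.18 to 0.17 (0.012) in MDL-800. With unlike numbers r ran from -0.37 to 0.33 (0.009) and from -0.17 to 0.23 (-0.027). So few pairs and such wide ranges cannot decide whether the numbers mark mice, and the main fits did not pair the libraries. With the number as a replicate block, C1s1 lost its call in vehicle mice (adjusted p = 0.0776, limma), and 8783 genes were called in place of 9127. Over the 3 MDL-800 pairs the C1s1 difference was -0.45 (adjusted p = 0.22 with the block and 0.137 without it, limma).

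None of the 9 genes passed in a treatment comparison under these alternatives, which were not run for the other complement genes. In NP the count over all genes went from 41 to 7 with no filter, 18 without scaling, 70 with quantile normalization, 18 with no trend and 4 with all 4 groups in the fit, and from 2 to 189 with a library left out, the highest without NP vehicle 6. In AF and in the interaction it was 0 to 1 with a library left out. Signs of small effects turned. With the GC trend removed, the NP effect was -0.013 for C3, -0.0047 for Cfb and 0.011 for C7, the AF effect of C4b was -0.011 (-0.0028 with quantile normalization), and the interaction of C3 was -0.015. With a pseudocount of 0.1 the interaction of C7 was -0.17. With a library left out, the NP effect ran from -0.086 to 0.52 for Serping1, -0.15 to 0.40 for C3, -0.075 to 0.14 for Cfb, -0.41 to 0.14 for Cfp and -0.10 to 0.022 for C7. The AF effect ran from -0.47 to 0.0036 for C1ra, -0.47 to 0.037 for Serping1, -0.26 to 0.20 for C4b, -0.21 to 0.12 for C3, -0.063 to 0.35 for Cfp and -0.59 to 0.17 for C7. The interaction ran from -0.098 to 0.38 for C1ra, -0.17 to 0.22 for C1s1, -0.16 to 0.21 for C2, -0.18 to 0.37 for C3, -0.52 to 0.025 for Cfp and -0.20 to 0.56 for C7. Depth limits C7 in NP, at most about 19.5 fragments a library.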
